A study of Rattus norvegicus with 12 samples.

Results

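The genes described here start blood coagulation, hold it in check at the vessel wall, or carry the signal of thrombin into cells. They are 10 genes chosen by name from the 17268 genes of the count matrix, and all 10 are listed in it: F3, Thbd, F2r, F2rl1, F2rl2, F2rl3, Procr, Tfpi, Vwf and Pros1. Bulk mRNA was sequenced from the cerebral cortex of adult male Sprague Dawley rats in 4 groups of 3 libraries. In Sham rats the carotid artery was dissected and no clot was injected. Model rats received a blood clot in the middle cerebral artery, which blocks flow to the cortex, and stayed untreated. The rt-PA rats had the same embolic stroke and received recombinant tissue type plasminogen activator, the drug used to dissolve clots, 6 h after it. The rt-PA+Acu rats had the stroke, Xingnao Kaiqiao acupuncture at the Shuigou and Neiguan acupoints 2 h after it, and rt-PA as well. No group here had acupuncture without rt-PA, so the acupuncture is read only as rt-PA+Acu against rt-PA.

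Coagulation in tissue begins when tissue factor, the product of F3, meets factor VII from plasma, and the pair activates factor X. Tissue factor pathway inhibitor (Tfpi) blocks that complex. Thrombin, the product of the cascade, cuts fibrinogen and also cuts protease-activated receptors (PARs) on cells: F2r encodes PAR1, F2rl1 PAR2, F2rl2 PAR3 and F2rl3 PAR4. PAR2 is cut by trypsin-like proteases and the tissue factor complex rather than by thrombin. Thrombin bound to thrombomodulin (Thbd) activates protein C, the endothelial protein C receptor (Procr) presents protein C to that complex, and protein S (Pros1) is the cofactor of the activated enzyme. Von Willebrand factor (Vwf) tethers platelets and carries factor VIII. In brain, tissue factor is made mainly by astrocytes, while Vwf, Thbd and Procr are known as endothelial genes.

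Promoters of 6 of the 10 members were on hand in RefSeq (build GRCr8). The 3 below are shown because they hold a match to the same short sequence, TGANTCA, the core of the AP-1 motif, and belong to a gene with a large difference between Model and Sham (Procr) and to a pair of receptor genes that lie close together (F2r and F2rl2). On the RefSeq assembly F2rl1, F2r and F2rl2 lie on 1 stretch of a chromosome with 1 coding gene between F2rl1 and F2r (Atp5mc2l2) and 1 between F2r and F2rl2 (Iqgap2). Each line gives the 250 bases before the annotated start of transcription, 5′ to 3′ on the strand of the gene, with the AP-1 match in capitals.
Procr, chr3:164714477-164714726, plus strand: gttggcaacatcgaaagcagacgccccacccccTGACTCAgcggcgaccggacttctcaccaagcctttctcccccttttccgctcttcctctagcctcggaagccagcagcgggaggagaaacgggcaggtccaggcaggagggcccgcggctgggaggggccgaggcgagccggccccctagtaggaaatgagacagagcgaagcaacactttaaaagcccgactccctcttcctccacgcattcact
F2r, chr2:28620580-28620829, minus strand: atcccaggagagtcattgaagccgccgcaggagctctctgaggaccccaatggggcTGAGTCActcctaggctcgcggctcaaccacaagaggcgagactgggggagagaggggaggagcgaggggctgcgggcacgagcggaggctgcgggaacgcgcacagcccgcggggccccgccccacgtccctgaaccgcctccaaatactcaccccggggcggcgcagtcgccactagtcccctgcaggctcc
F2rl2, chr2:28706516-28706765, plus strand: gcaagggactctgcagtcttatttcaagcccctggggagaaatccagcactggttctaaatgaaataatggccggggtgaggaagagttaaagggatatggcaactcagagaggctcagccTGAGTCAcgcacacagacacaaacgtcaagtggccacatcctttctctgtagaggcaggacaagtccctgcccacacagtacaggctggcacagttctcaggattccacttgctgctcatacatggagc

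The match lies at -217 to -211 from the start in Procr, at -194 to -188 in F2r and at -129 to -123 in F2rl2. Of all 33465 windows of this length, 6.34% hold TGANTCA. The windows of Tfpi (which has 2 annotated starts), Pros1 and F2rl3 held no such match. The other motifs searched on both strands were SP1 (GGGCGG, in 30.5% of all windows), EGR1 (GCGNGGGCG, 4.29%), CRE (TGACGTCA, 1.59%), STAT (TTCNNNGAA, 7.67%) and NF-kB (3.54%). The hypoxia response core ACGTG (16.6% of all windows) was searched too. So was the TATA box, written TATAAA, which 12.9% of them hold. SP1 letters were found in F2r, Tfpi and Pros1, STAT letters in Pros1, and the hypoxia response core in F2r, where it directly follows an SP1 match without overlap. These are matches of letters, and the data hold no measure of binding.

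Library totals ran from 11678450 to 13616935 counts, and 3 counts, the limit that a count of 0 allows, came to between 0.208 and 0.262 CPM. CPM scales the counts of a library to a common total, here after TMM normalisation, which sets most genes level between libraries, and values within a group are given in the order of the replicate numbers. A gene passed the test where edgeR's quasi-likelihood test gave a Benjamini-Hochberg adjusted p under 0.05 over all genes tested in that comparison. Log2 fold changes are given ± their standard error (SE). Model replicate 3 stood apart from its group in Rpl39, a ribosomal protein gene. It had 142 counts, within the 105 to 151 of the Sham libraries, against 488 to 990 in the other 8 libraries. Model replicate 3 also stood apart in some endothelial markers used below. Pecam1 was at 118 CPM there against 37.9 and 43.8 in Model replicates 1 and 2, and Esam at 52.4 against 17.2 and 24.3. Among the rt-PA+Acu libraries, replicate 3 stood apart from replicates 1 and 2. Its TMM factor was 1.048 against 0.949 and 0.948. Among the markers used below, Gfap was at 4378 CPM against 2189 and 2184, and Camk2a at 894 against 1591 and 1630. Where the call of a named coagulation or receptor gene in Model against Sham changed without Model replicate 3, both values are given.

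**Figure D1:**
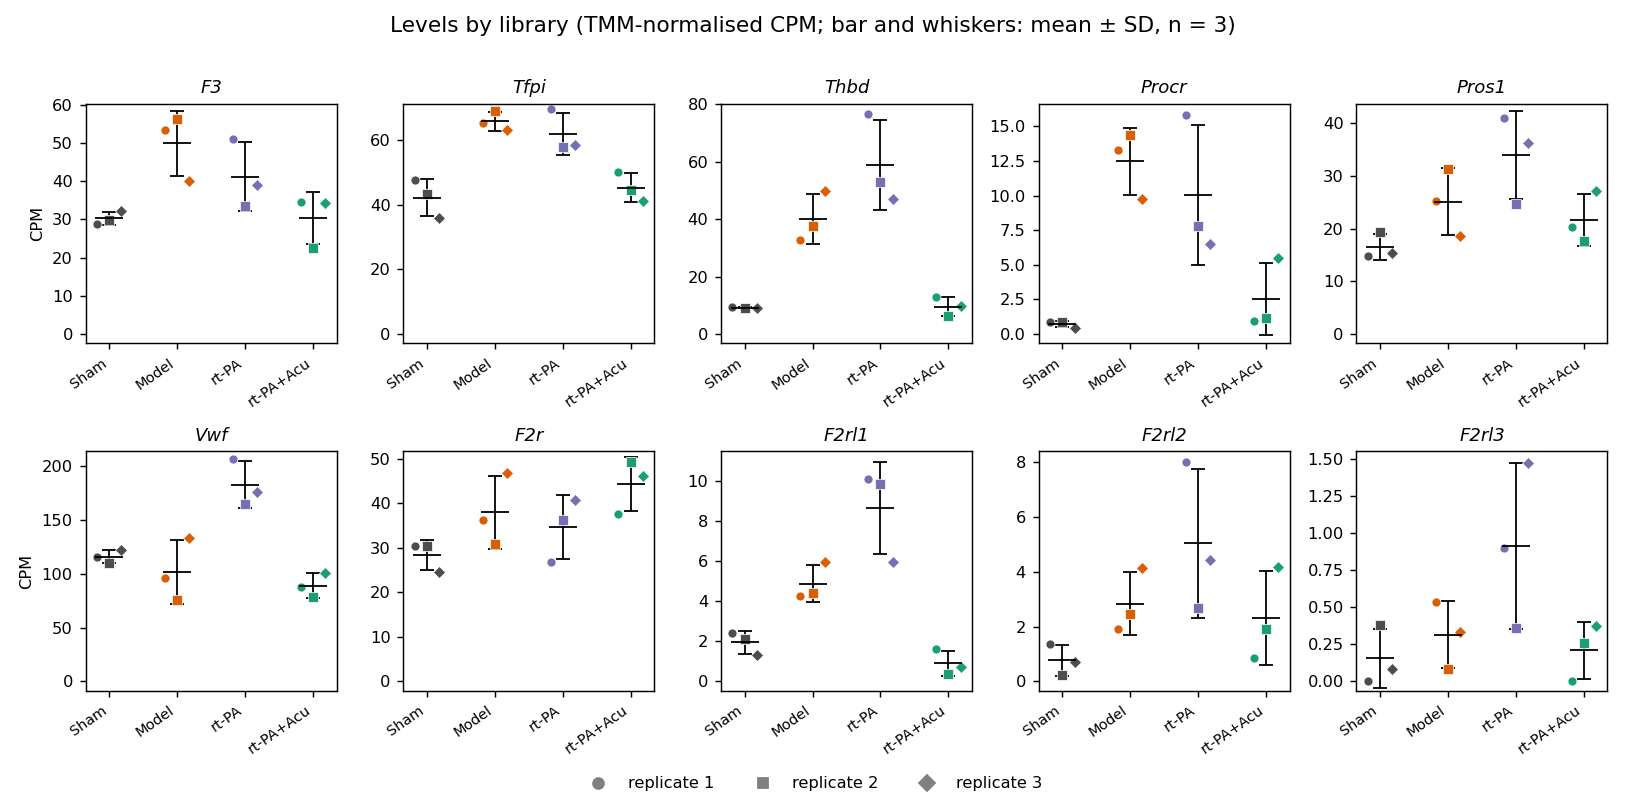
Level of each of the 10 genes (vertical axis, TMM-normalised CPM, linear and including 0, a scale of its own for each gene) in the 12 libraries by group; symbols are single libraries and the bar with whiskers is mean ± SD (n = 3). Thbd is at or under 12.7 CPM in every Sham and rt-PA+Acu library and at or over 32.6 CPM in every Model and rt-PA library, while F2r is highest in rt-PA+Acu.

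Stroke alone was examined first, in Model against Sham. 7 of the 10 genes were higher in Model and none was lower, where 27.3% of all 12884 genes tested rose and 54.0% passed in either direction. The 7 were Procr, Thbd, F2rl2, F2rl1, F3, Tfpi and Pros1. Procr, Thbd, F2rl2 and F2rl1 also passed a log2 fold change of 1, which 9.43% of all genes tested did upward. F2r and Vwf did not pass, and F2rl3 was too low to be tested. Procr and F2rl2 lay at or under 1.37 CPM in every Sham library, so they entered the test through their Model values. Without Model replicate 3 the genes that passed were 6 higher and 1 lower, since F2rl2 no longer passed (adjusted p = 0.0653) and Vwf passed as lower. With each of the other libraries left out in turn 5 to 7 genes were higher and none was lower.

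The effect of rt-PA given at 6 h was examined in rt-PA against Model. None of the 10 genes passed, and neither did any of the 12941 genes tested by edgeR (0%). At an unadjusted p under 0.05 there were 3 members, Thbd, F2rl1 and Vwf, all higher in rt-PA, where 5.19% of all genes tested were higher at that level. By DESeq2, which called 1.54% of the genes it tested, 1 member passed, Vwf. F2rl1 and Vwf were the 2 members whose rt-PA and Model libraries did not overlap. In both the rt-PA libraries were the higher ones, as in 7.85% of all genes tested.

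Acupuncture added to rt-PA was examined in rt-PA+Acu against rt-PA. 4 of the 10 genes were lower in rt-PA+Acu and none was higher, where 17.7% of all 12999 genes tested fell and 34.8% passed in either direction. The 4 were F2rl1, Thbd, Vwf and Tfpi, and the first 3 of these passed a log2 fold change of 1, which 8.16% of all genes tested did downward. F3, F2r, F2rl2, Procr and Pros1 did not pass. Without rt-PA+Acu replicate 3 the count was 7, the others being Procr, F2rl2 and Pros1. All genes passing in either direction went from 4522 to 5417 in that setting.

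The other pairs of groups place these levels against Sham and against untreated stroke, and they share libraries with the comparisons above. Against Sham, rt-PA was higher in 8 of the 10 genes, the exceptions being F2r, which did not pass, and F2rl3, which was not tested, where 27.4% of all genes tested rose. Procr and F2rl2 entered that comparison through their rt-PA values. In rt-PA+Acu against Sham 1 of the 10 genes passed, F2r, which was higher, where 1.70% of all genes tested rose and 5.10% passed in either direction. That call was lost with library size alone as the scaling (adjusted p = 0.0521), in 1 fit over all 12 libraries (adjusted p = 0.0720) and when any Sham library, rt-PA+Acu replicate 2 or rt-PA+Acu replicate 3 was left out (adjusted p between 0.0677 and 0.153). In rt-PA+Acu against Model 5 genes were lower (F3, Thbd, F2rl1, Procr and Tfpi), where 16.9% of all genes tested fell.

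**Figure D2:**
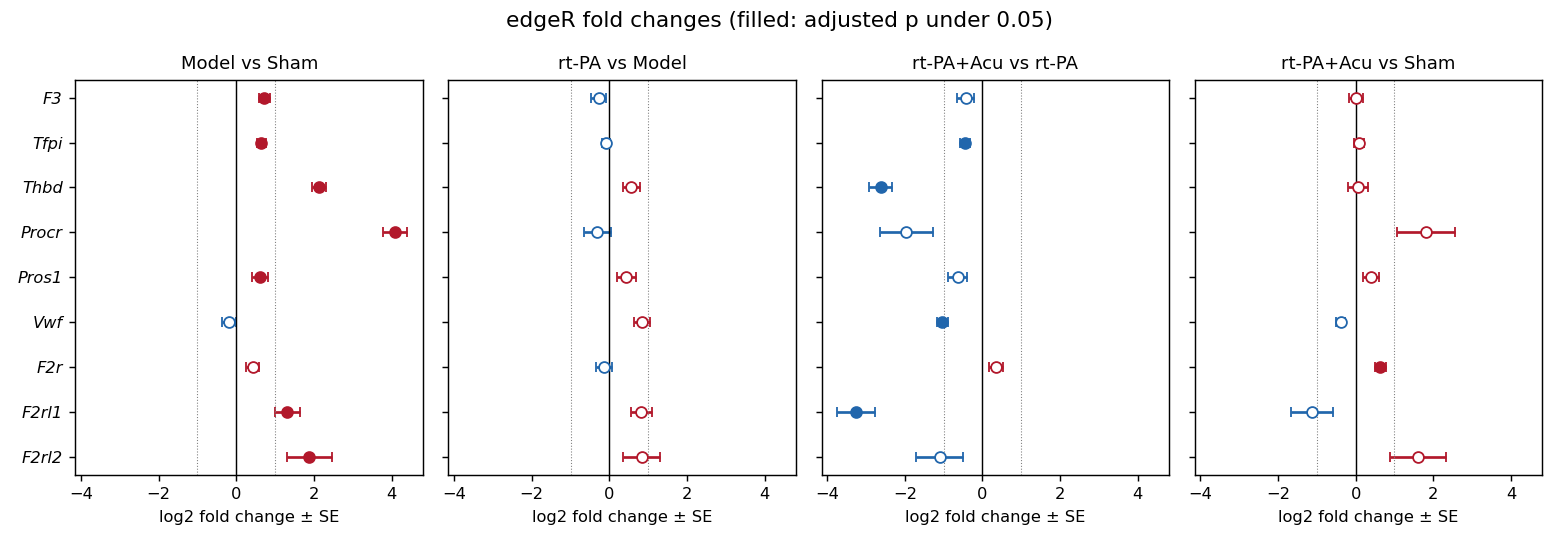
Log2 fold change ± SE (horizontal axis) of the 9 genes tested in 4 comparisons, from edgeR; filled points have an adjusted p under 0.05, red points are higher and blue points lower in the group named first, and dotted lines mark a log2 fold change of 1 in each direction. The Model vs Sham points run from -0.18 for Vwf to 4.09 for Procr.

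F3, tissue factor, was moderately higher after stroke. The Sham libraries stood at 28.8, 30.0 and 32.2 CPM, the Model libraries at 53.3, 56.2 and 40.1, the rt-PA libraries at 51.1, 33.4 and 39.1, and the rt-PA+Acu libraries at 34.6, 22.5 and 34.3. Every Model and every rt-PA library lay above every Sham library, and the rt-PA+Acu libraries lay on both sides of Sham. F3 rose 1.65-fold in Model over Sham (log2 fold change 0.73 ± 0.14, adjusted p = 0.00294). Between rt-PA and Model it differed by -0.27 ± 0.19 (adjusted p = 0.691), and adding acupuncture to rt-PA went with a difference of -0.43 ± 0.22 (adjusted p = 0.161), so neither step passed. Compared with Model, F3 was lower in rt-PA+Acu (-0.71 ± 0.20, adjusted p = 0.0307), a call lost without Model replicate 1, Model replicate 2 or rt-PA+Acu replicate 2 (adjusted p up to 0.103). Against Sham, rt-PA+Acu differed by 0.01 ± 0.17 (adjusted p = 0.989). The rise in rt-PA over Sham (0.42 ± 0.16, adjusted p = 0.0492) was lost when any library other than rt-PA replicate 2 was left out.

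Tfpi, the inhibitor of the tissue factor complex, followed the same order of group means, from Model through rt-PA and rt-PA+Acu to Sham. Sham libraries held 47.6, 43.3 and 36.0 CPM, Model libraries 65.5, 69.0 and 63.3, rt-PA libraries 69.6, 58.0 and 58.4, and rt-PA+Acu libraries 50.1, 44.7 and 41.3. The Model and rt-PA libraries all lay above the Sham and rt-PA+Acu libraries. Tfpi rose 1.56-fold in Model over Sham (0.65 ± 0.12, adjusted p = 0.00218) and was lower with acupuncture and rt-PA than with rt-PA alone (-0.45 ± 0.12, adjusted p = 0.0278). The second call was lost without rt-PA replicate 1, rt-PA replicate 3 or rt-PA+Acu replicate 2 (adjusted p up to 0.0961). From Model to rt-PA+Acu the change in Tfpi was -0.54 ± 0.11 (adjusted p = 0.0100), which held with every library left out in turn. Compared with Sham, rt-PA+Acu differed by 0.10 ± 0.13 (adjusted p = 0.697).

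Thbd, the thrombomodulin gene, fell into a low pair and a high pair of groups. Sham libraries held 9.26, 9.02 and 9.08 CPM, Model 32.6, 37.6 and 49.6, rt-PA 76.5, 52.7 and 47.0, and rt-PA+Acu 12.7, 6.11 and 9.78. Sham and rt-PA+Acu overlapped, and both lay below every Model and rt-PA library. Thbd rose 4.38-fold in Model over Sham (2.13 ± 0.17, adjusted p = 4.69e-05) and 6.44-fold in rt-PA over Sham (2.67 ± 0.19, adjusted p = 3.56e-05). In rt-PA against Model it was 0.56 ± 0.22 higher, with an adjusted p of 0.464. In rt-PA+Acu the mean was 0.162 times that of rt-PA (log2 fold change -2.62 ± 0.30, adjusted p = 0.00159) and 0.239 times that of Model (-2.06 ± 0.28, adjusted p = 0.00224). Against Sham, rt-PA+Acu differed by 0.06 ± 0.26 (adjusted p = 0.907). The rises over Sham and the falls in rt-PA+Acu kept an adjusted p of at most 0.0140 under every setting tried.

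Since Thbd turns thrombin toward protein C and F3 starts the making of thrombin, their counts within a library were set side by side, a ratio chosen after the values had been seen and given with no test. The ratio of Thbd to F3 counts was 0.322, 0.301 and 0.282 in the Sham libraries, 0.612, 0.669 and 1.24 in those of Model, 1.497, 1.58 and 1.20 in those of rt-PA, and 0.368, 0.271 and 0.285 in those of rt-PA+Acu. Thbd had fewer counts than F3 in every Sham and rt-PA+Acu library and more in every rt-PA library. Among the Model libraries only replicate 3, the one that stood apart in Rpl39, had more. As the ratio compares counts of genes of different length, its size is no ratio of molecules, and only its change between libraries can be read.

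**Figure D3:**
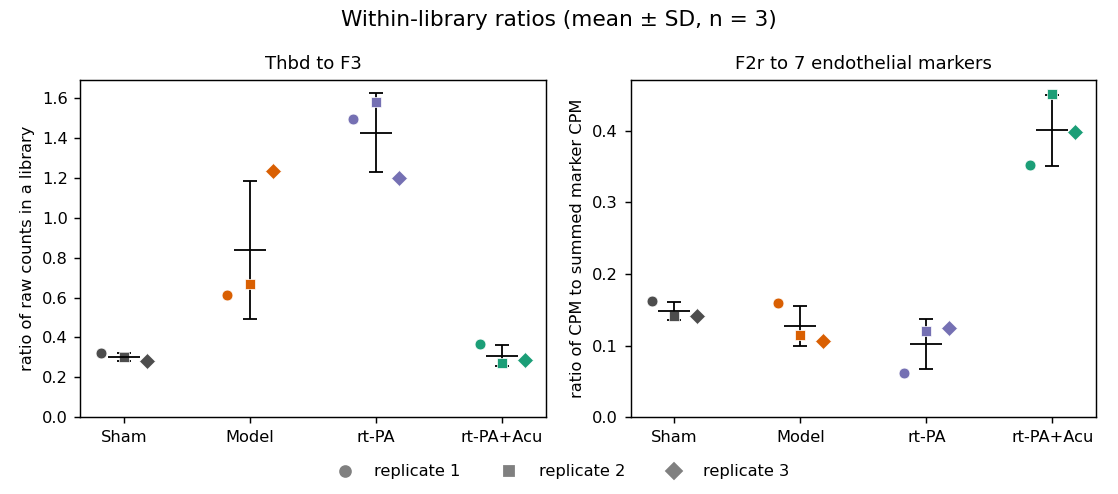
Within-library ratios by group (vertical axes, linear from 0, no unit): raw counts of Thbd over those of F3 (left) and F2r CPM over the summed CPM of the 7 endothelial markers in the table (right); symbols are libraries and the bar with whiskers is mean ± SD (n = 3). The left ratio has means of 0.302 in Sham and 0.308 in rt-PA+Acu against 1.43 in rt-PA, and the right ratio has means of 0.148 in Sham and 0.401 in rt-PA+Acu. The marker sum under the right ratio is itself lower in rt-PA+Acu than in Sham.

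Procr, the endothelial protein C receptor, had the largest fold change of the 9 genes tested in Model over Sham. It was low in Sham, with 11, 11 and 5 counts (0.886, 0.841 and 0.437 CPM). Model libraries held 174, 170 and 118 counts (13.3, 14.4 and 9.75 CPM), rt-PA libraries 228, 109 and 88 (15.8, 7.83 and 6.49 CPM), and rt-PA+Acu libraries 11, 13 and 74 (0.927, 1.13 and 5.52 CPM). Replicates 1 and 2 of rt-PA+Acu were near Sham and replicate 3 was near the rt-PA libraries, though still below them all. The mean was 17.3-fold higher in Model than in Sham (4.09 ± 0.32, adjusted p = 3.83e-05) and 13.9-fold higher in rt-PA than in Sham (3.75 ± 0.46, adjusted p = 0.000347). From rt-PA to rt-PA+Acu the change was -1.96 ± 0.68 with an adjusted p of 0.0582, and it passed by DESeq2 (adjusted p = 0.0106), in 1 fit over all 12 libraries (adjusted p = 0.0154) and without rt-PA+Acu replicate 3 (-3.27, adjusted p = 0.00403). Against Model, Procr was lower in rt-PA+Acu (-2.27 ± 0.61, adjusted p = 0.0237), a call lost without Model replicate 1 or 2 or rt-PA+Acu replicate 1 or 2 (adjusted p up to 0.0760). Against Sham it was 1.81 ± 0.75 higher in rt-PA+Acu without passing (adjusted p = 0.196), though the groups did not overlap, as held for 30.8% of all genes tested there.

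Pros1, which encodes protein S, differed by smaller factors than Thbd and Procr in Model over Sham. Sham libraries held 14.7, 19.4 and 15.4 CPM, Model libraries 25.2, 31.3 and 18.7, rt-PA libraries 40.9, 24.7 and 36.1, and rt-PA+Acu libraries 20.2, 17.6 and 27.2. Model overlapped Sham through its replicate 3, and all rt-PA libraries lay above Sham. Pros1 rose 2.05-fold in rt-PA over Sham (1.02 ± 0.20, adjusted p = 0.00379). The rise in Model over Sham (0.61 ± 0.21, adjusted p = 0.0362) was lost without Sham replicate 1 or 3 or Model replicate 1 or 2 (adjusted p up to 0.135). Acupuncture with rt-PA differed from rt-PA by -0.64 ± 0.24 with an adjusted p of 0.0692, and the difference passed by DESeq2 (adjusted p = 0.0416) and without rt-PA replicate 2 (adjusted p = 0.0278) or rt-PA+Acu replicate 3 (adjusted p = 0.0267).

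Vwf, stored in endothelial granules and in platelets, was the only one of the 10 genes with a Model mean below its Sham mean. Sham libraries held 115, 110 and 122 CPM, Model 96.4, 75.5 and 134, rt-PA 207, 165 and 176, and rt-PA+Acu 87.9, 78.2 and 101. Every rt-PA library was above every library of the other groups, and every rt-PA+Acu library was below every Sham library. In Model against Sham the difference was -0.18 ± 0.18 (adjusted p = 0.433). Without Model replicate 3 it was -0.42 and passed (adjusted p = 0.0173). Vwf rose 1.58-fold in rt-PA over Sham (0.64 ± 0.10, adjusted p = 0.00121). In rt-PA against Model it was 1.79-fold higher (0.85 ± 0.20, unadjusted p = 0.00325), which gave an adjusted p of 0.320 by edgeR and 0.0127 by DESeq2. In rt-PA+Acu the mean was 0.487 times that of rt-PA (-1.04 ± 0.14, adjusted p = 0.00273), a call held under every setting tried. Against Sham, rt-PA+Acu differed by -0.38 ± 0.12 (adjusted p = 0.105), and without its replicate 3 by -0.49 (adjusted p = 0.0272).

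F2r encodes PAR1, the main thrombin receptor on endothelium and astrocytes. Sham libraries held 30.4, 30.4 and 24.5 CPM, Model libraries 36.3, 30.8 and 46.7, rt-PA libraries 26.8, 36.4 and 40.8, and rt-PA+Acu libraries 37.5, 49.2 and 46.1. The mean of the last group (44.3 ± 6.07, SD) was the highest of the 4 groups, and no neighbouring pair in the order rt-PA+Acu, Model, rt-PA, Sham passed the test. Against Sham, F2r was 1.56-fold higher in rt-PA+Acu (0.64 ± 0.14, adjusted p = 0.0466, a call that other settings lost, as given above). The 1.33-fold difference in Model over Sham had an adjusted p of 0.0637 although the groups did not overlap, and it passed with library size alone (adjusted p = 0.0430) and without Model replicate 2 (adjusted p = 0.0293). Between rt-PA+Acu and rt-PA the difference was 0.36 ± 0.18 (adjusted p = 0.167). The rt-PA libraries differed from Sham by 0.26 ± 0.17 (adjusted p = 0.232), and without rt-PA replicate 1 that difference was 0.43 and passed (adjusted p = 0.0362).

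F2rl1, the PAR2 gene, was low in the uninjured cortex and moved by large factors. Sham libraries had 30, 28 and 15 counts (2.42, 2.14 and 1.31 CPM), Model libraries 56, 52 and 72 (4.28, 4.40 and 5.95 CPM), rt-PA libraries 145, 137 and 81 (10.1, 9.84 and 5.97 CPM), and rt-PA+Acu libraries 19, 4 and 10 (1.60, 0.349 and 0.746 CPM). Sham, Model and rt-PA did not overlap with each other, and rt-PA+Acu overlapped with Sham alone. F2rl1 rose 2.49-fold in Model over Sham (1.31 ± 0.32, adjusted p = 0.00874) and 4.41-fold in rt-PA over Sham (2.11 ± 0.32, adjusted p = 0.000976). The step from Model to rt-PA was 0.83 ± 0.28 (adjusted p = 0.401). In rt-PA+Acu the mean was 0.104 times that of rt-PA (-3.25 ± 0.49, adjusted p = 0.00380) and 0.184 times that of Model (-2.43 ± 0.50, adjusted p = 0.00930). With 19, 4 and 10 counts in rt-PA+Acu, F2rl1 entered these tests through the rt-PA and Model libraries. Against Sham, rt-PA+Acu was 0.460 times as high without passing (-1.12 ± 0.54, adjusted p = 0.255).

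F2rl2, the PAR3 gene, which helps other PARs to be cut by thrombin, varied widely between replicates. Sham libraries had 17, 3 and 8 counts (1.37, 0.229 and 0.698 CPM), Model libraries 25, 29 and 50 (1.91, 2.46 and 4.13 CPM), rt-PA libraries 115, 37 and 60 (7.98, 2.66 and 4.43 CPM), and rt-PA+Acu libraries 10, 22 and 56 (0.843, 1.92 and 4.18 CPM). The rt-PA+Acu libraries spanned the range from within Sham to above every Model library. F2rl2 was 3.70-fold higher in Model than in Sham (1.88 ± 0.58, adjusted p = 0.0248), a call lost without Sham replicate 2, Sham replicate 3 or Model replicate 3 (adjusted p up to 0.0784). It was 6.56-fold higher in rt-PA than in Sham (2.69 ± 0.62, adjusted p = 0.00704), which held with each library left out. Set against rt-PA, rt-PA+Acu differed by -1.10 ± 0.61 (adjusted p = 0.194), and without rt-PA+Acu replicate 3 it was -1.85 and passed (adjusted p = 0.0454).

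F2rl3, the PAR4 gene, known as a platelet thrombin receptor, was at the edge of detection and was tested in no comparison of the main fit. In rt-PA against Sham it was tested and passed as higher without Sham replicate 2 and without rt-PA replicate 2. Sham libraries had 0, 5 and 1 counts, Model libraries 7, 1 and 4, rt-PA libraries 13, 5 and 20, and rt-PA+Acu libraries 0, 3 and 5. The highest level was 1.48 CPM, in rt-PA replicate 3, and the groups overlapped in every pair.

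Around these 10 genes, 65 others of the coagulation and receptor pathways were listed, of which 62 are in the matrix and 40 were tested in Model against Sham. There 10 rose and 13 fell, so that 57.5% of those tested passed beside 54.0% of all genes. Without Model replicate 3, 11 rose and 17 fell, while all genes passing went from 6951 to 7528. In rt-PA against Model 0 of 42 passed by edgeR and 0 by DESeq2, and 7 had an unadjusted p under 0.05, where 9.92% of all genes tested did. In rt-PA+Acu against rt-PA 8 rose and 14 fell among 42 tested, which is 52.4% beside 34.8% of all genes. That count of 22 dropped to 12 without rt-PA replicate 1 or without rt-PA+Acu replicate 2, and to 13 without rt-PA+Acu replicate 1. All genes passing dropped from 4522 to 2694, 2496 and 2850 in those settings, in that order. The median log2 fold change of those tested was -0.12 in Model against Sham and -0.26 in rt-PA+Acu against rt-PA, beside 0.014 and -0.0027 for all genes tested. Among the coagulation factors 6 of 16 were tested in Model against Sham, and most of the others, liver products in the main, were too low. Of the 6, 2 rose and 1 fell, which was F8, the factor that Vwf carries. F8 was at 45.3, 43.4 and 35.9 CPM in Sham and 24.6, 25.3 and 32.8 in Model. It was at 27.8, 26.2 and 24.7 CPM in rt-PA and 31.6, 33.4 and 37.9 in rt-PA+Acu. In rt-PA against Sham 5 of 7 factors tested rose and 2 fell, where 27.4% of all genes tested rose.

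F7, the plasma partner of tissue factor, had no count in any Sham library. Model libraries had 95, 63 and 54 counts, rt-PA libraries 72, 17 and 72, and rt-PA+Acu libraries 0, 0 and 18. It thus entered the tests against Sham only through the libraries in which it was high. Taken against 3 counts in each Sham library, F7 was at least 23.3-fold higher in Model (adjusted p = 0.000173) and at least 15.7-fold higher in rt-PA (adjusted p = 0.00259). In rt-PA+Acu the F7 mean was 0.0788 times that of Model (adjusted p = 0.0264 by edgeR), a call lost by DESeq2 (adjusted p = 0.129) and without Model replicate 1 or 2 or rt-PA+Acu replicate 1 or 2 (adjusted p up to 0.0719). Against rt-PA the adjusted p was 0.0729, and without rt-PA+Acu replicate 3 it was 0.00932. The 1 rt-PA+Acu library with F7 counts, replicate 3, was also the one with the most Procr and F2rl2.

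Fgl2, fibrinogen-like protein 2, which can cut prothrombin without the rest of the cascade, was at 6.12, 6.73 and 7.94 CPM in Sham and at 62.4, 62.9 and 78.0 in Model, a 9.77-fold rise (adjusted p = 4.82e-06). It was at 106, 132 and 82.3 CPM in rt-PA and at 22.2, 16.7 and 46.3 in rt-PA+Acu, where it fell to 0.266 times the rt-PA mean (adjusted p = 0.00856) and was still 4.10-fold above Sham (adjusted p = 0.0244), the latter call being lost without any 1 Sham library (adjusted p up to 0.124). F5, factor V, the cofactor that activated protein C inactivates, did not pass in Model over Sham (adjusted p = 0.160) and ranged there from 0.496 to 5.25 CPM, the lowest value being that of Model replicate 3, without which F5 was 3.40-fold higher and passed (adjusted p = 0.00841). It fell from 7.01, 1.72 and 8.998 CPM in rt-PA to 1.60, 1.13 and 1.79 in rt-PA+Acu (-1.96 ± 0.59, adjusted p = 0.0363), a call lost when any library other than rt-PA replicate 2 was left out (adjusted p up to 0.119). Fga, the fibrinogen alpha chain, had 16, 17 and 14 counts in rt-PA and 1, 3 and 6 in rt-PA+Acu (adjusted p = 0.0283), a call lost when any library other than rt-PA+Acu replicate 3 was left out (adjusted p up to 0.0913). Fga entered that test through its rt-PA values. F13a1, the subunit of the factor that crosslinks fibrin, rose 2.71-fold in rt-PA over Sham (adjusted p = 0.00804), and its adjusted p in rt-PA+Acu against rt-PA was 0.0508.

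Tfpi2, a relative of Tfpi that inhibits plasmin and the tissue factor complex, had 8, 6 and 3 counts in the Sham libraries, 119, 67 and 113 in those of Model, 276, 284 and 96 in those of rt-PA, and 3, 4 and 3 in those of rt-PA+Acu. It rose 17.6-fold in Model over Sham (4.11 ± 0.39, adjusted p = 9.48e-05). In rt-PA+Acu it fell to 0.0177 times the rt-PA mean (-5.78 ± 0.55, adjusted p = 0.00118). As Sham and rt-PA+Acu lay near the limit of 3 counts, Tfpi2 entered both tests through the libraries in which it was high. Tfpi and Tfpi2 thus passed in the same directions in both comparisons, with log2 fold changes of 0.65 and 4.11 in the first and -0.45 and -5.78 in the second.

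**Figure D4:**
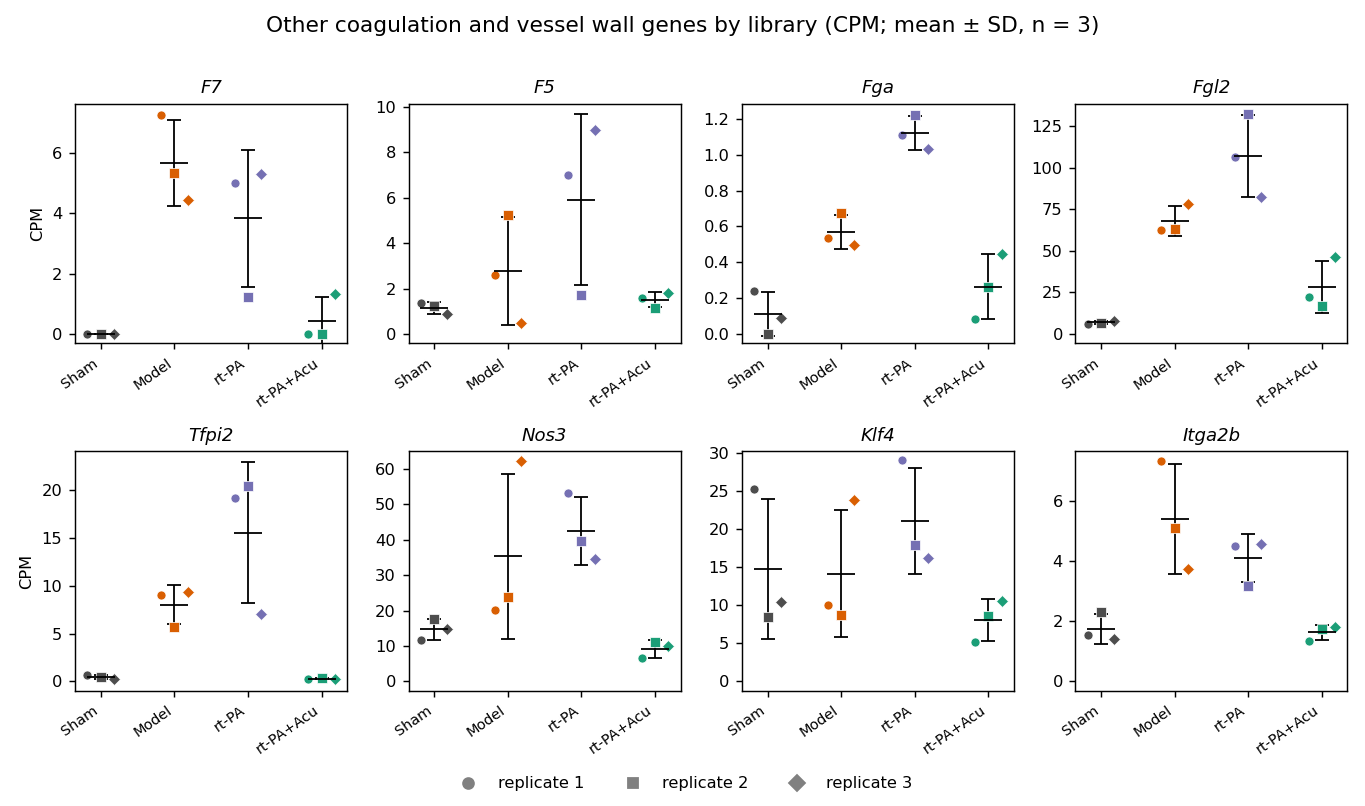
Level of 8 other genes of coagulation and the vessel wall (vertical axis, TMM-normalised CPM, linear and including 0, a scale of its own for each gene) by group; symbols are libraries and the bar with whiskers is mean ± SD (n = 3). F7 is at 0 in all Sham libraries and Tfpi2 is under 1 CPM in every Sham and rt-PA+Acu library.

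Protein S also serves as a ligand of the receptors Tyro3 and Mertk, and both were lower after stroke, while Pros1 was higher. Tyro3 was at 318, 314 and 314 CPM in Sham and 89.0, 112 and 141 in Model (-1.46 ± 0.15, adjusted p = 0.000142). In rt-PA+Acu Tyro3 was at 264, 259 and 143 CPM, 2.05-fold above rt-PA (adjusted p = 0.0169), a call lost without replicate 1 or 3 of rt-PA or replicate 1 or 2 of rt-PA+Acu (adjusted p up to 0.0616). Mertk fell to 0.382 times its Sham mean in Model (adjusted p = 0.000883) and did not pass in rt-PA+Acu against rt-PA (0.18 ± 0.18, adjusted p = 0.452). It was still 0.483 times its Sham mean in rt-PA+Acu (adjusted p = 0.0105, and 0.0643 without Sham replicate 2).

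Of the platelet genes, 11 of 13 are in the matrix and 4 were tested in Model against Sham. Itga2b and Itgb3, which together form the fibrinogen receptor of platelets, rose 3.09-fold (adjusted p = 0.00539) and 3.32-fold (adjusted p = 0.0208). The Itgb3 call was lost without Model replicate 3 (2.64-fold, adjusted p = 0.0554), Sham replicate 2 or Sham replicate 3 (adjusted p up to 0.0703). In rt-PA+Acu both fell against rt-PA, to 0.399 and 0.307 times its mean (adjusted p = 0.0150 and 0.0368). Pf4, platelet factor 4, fell to 0.292 times the rt-PA mean (adjusted p = 0.0278). These 3 calls did not hold with each library left out: that of Itga2b was lost without rt-PA replicate 1 or 3 or rt-PA+Acu replicate 1 (adjusted p up to 0.0568), that of Itgb3 without any of replicates 1 and 2 of both groups (adjusted p up to 0.103), and that of Pf4 without any library but rt-PA replicate 2 (adjusted p up to 0.0966). Mmrn1, multimerin, which binds factor V, had 11, 12 and 26 counts in rt-PA+Acu against 1, 0 and 0 in rt-PA and 0, 2 and 2 in Sham (adjusted p = 0.00493 and 0.0390). The call against Sham was lost without any Sham library or rt-PA+Acu replicate 2 or 3 (adjusted p up to 0.159). Its mean was at least 6.07-fold above rt-PA when the latter is set at 3 counts in each library. Mmrn1 entered both tests through its rt-PA+Acu values.

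Among 15 signal transducers of the PARs, 3 rose and 7 fell in Model over Sham, and 3 rose and 3 fell in rt-PA+Acu against rt-PA. These are 66.7% and 40.0% of the 15, beside 54.0% and 34.8% of all genes tested. Plcb1, the phospholipase activated by Gq, was at 0.455 times its Sham mean in Model (adjusted p = 8.45e-05) and 1.89-fold above rt-PA in rt-PA+Acu (adjusted p = 0.0167), where the call was lost without rt-PA replicate 1 or rt-PA+Acu replicate 1 or 2 (adjusted p up to 0.0592). Among 6 genes for endothelial transcription factors and nitric oxide synthase, Nos3 rose 2.39-fold in Model over Sham (adjusted p = 0.0285), with 20.2, 23.7 and 62.1 CPM in the Model libraries, the highest being replicate 3. Without that library the fold was 1.49 (adjusted p = 0.0295), and without any 1 Sham library the call was lost (adjusted p up to 0.0965). Nos3 fell to 0.217 times the rt-PA mean in rt-PA+Acu (adjusted p = 0.00159). Klf4 and Erg also fell there, to 0.385 and 0.494 times the rt-PA mean (adjusted p = 0.0161 and 0.00986), and the Klf4 call was lost without rt-PA replicate 1 or rt-PA+Acu replicate 2 (adjusted p up to 0.0538). Mef2c, which neurons express too, fell to 0.314 times its Sham mean in Model (adjusted p = 1.93e-05) and was 3.41-fold above rt-PA in rt-PA+Acu (adjusted p = 0.00112).

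Markers of cell types also differed between the groups, not always in the direction of these genes. In bulk tissue fewer cells of a type and less RNA per cell cannot be told apart. The summed level of the 7 of 10 endothelial markers in the table ranged over the Sham libraries from 173 to 216 CPM, over Model from 228 to 437, over rt-PA from 302 to 436 and over rt-PA+Acu from 106 to 116. The highest Model value was that of replicate 3. In Model against Sham 2 of the 7 markers passed, where 54.0% of all genes did. Of the 2, 1 fell and 1 rose, the latter being Kdr, a VEGF receptor, which was 7.18-fold higher (adjusted p = 2.60e-05). Without Kdr, left out after its values had been seen, the other 6 summed to 161 to 195 CPM in Sham, to 133, 147 and 301 in the Model libraries, to 228 to 302 in rt-PA and to 95.7 to 101 in rt-PA+Acu. The sum of these 6 was thus below every Sham library in Model replicates 1 and 2. In rt-PA+Acu 6 of the 7 fell against rt-PA, where 17.7% of all genes did. Against Sham 5 fell, where 5.10% of all genes passed in either direction. Monocyte and macrophage markers (8 of 8 in the table) summed to 56.5 to 76.4 CPM, 164 to 240, 242 to 457 and 32.5 to 49.8 in the same order of groups. Neutrophil markers (7 of 7) summed to 11.5 to 16.8 CPM, 88.4 to 122, 120 to 152 and 23.8 to 31.1, again in that order, with Retnlg at 0 in Sham and Mmp8 and Retnlg at 0 in rt-PA+Acu. Most of the neutrophil sum in Model was Mmp9, a matrix protease that other cells make too, with 84.1, 77.9 and 105 CPM. The other 6 summed to 7.26 to 11.8 CPM in Sham, 5.11 to 17.1 in Model, 14.8 to 81.7 in rt-PA and 3.66 to 5.24 in rt-PA+Acu, so Model and Sham overlapped without Mmp9. The part of these cells in the levels of the 10 genes was not tested.

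Other tissue markers were checked in the same way. Of the 8 astrocyte markers, all in the table, 7 fell in Model over Sham and 1 rose, where 54.0% of all genes passed, with a median log2 fold change of -1.42. The one that rose was Gfap, the filament protein of reactive astrocytes (8.54-fold, adjusted p = 1.21e-05). The 8 summed to 6575 to 7599 CPM in Sham and 4835 to 6731 in Model, and the 7 without Gfap to 6179 to 7184 in Sham, 2350 to 2879 in Model, 2046 to 2853 in rt-PA and 3940 to 5449 in rt-PA+Acu. In rt-PA+Acu against rt-PA 7 of the 8 rose, as did 2216 of all 12999 genes tested. F3, for which astrocytes are the known source in brain, was thus higher in Model while 7 of the 8 markers were lower. Markers of pericytes and smooth muscle (7 of 7) summed to 234 to 260 CPM in Sham and 134 to 168 in Model. They summed to 145 to 213 CPM in rt-PA and 125 to 137 in rt-PA+Acu. In rt-PA+Acu 4 of the 6 tested fell against Sham, where 5.10% of all genes passed in either direction. Against rt-PA 3 of the 6 tested fell and 1 rose, where 34.8% of all genes passed. Neuron markers (8 of 8) summed to 7532 to 8184 CPM in Sham and 5427 to 5766 in Model. They summed to 4188 to 5442 CPM in rt-PA and 5182 to 8009 in rt-PA+Acu. Oligodendrocyte markers (6 of 6) ranged from 11966 to 17905 CPM in Sham and from 1672 to 8503 in Model. They ranged from 2695 to 11447 CPM in rt-PA and from 3212 to 21103 in rt-PA+Acu. In Model over Sham 5 of these 6 fell, where 54.0% of all genes passed, with a median log2 fold change of -1.66. Homeostatic microglia markers (6 of 6, with Siglech at 0 in all groups but rt-PA) summed to 381 to 442 CPM in Sham, 303 to 341 in Model, 279 to 326 in rt-PA and 293 to 334 in rt-PA+Acu, and of the 5 tested 4 fell and 1 rose in Model over Sham. Markers of meninges and fibroblasts (7 of 8) summed to 204 to 341 CPM in Sham, 56.9 to 130 in Model, 127 to 379 in rt-PA and 148 to 289 in rt-PA+Acu. Model lay below Sham and below rt-PA+Acu without overlap. In Model over Sham 3 of the 7 fell, where 54.0% of all genes passed in either direction. In rt-PA+Acu against Model 4 of the 7 were higher, as were 2233 of all 12855 genes tested. In rt-PA against Model none passed, at a median log2 fold change of 2.07. The part of these tissues in the levels of the 10 genes was not tested. Choroid plexus markers (7 of 7, with Otx2 at 0 throughout) summed to 1.05 to 2.60 CPM in Sham and 9.75 to 19.4 in Model. They summed to 4.93 to 7.97 CPM in rt-PA and 1.22 to 2.36 in rt-PA+Acu. Every Model and rt-PA library thus lay above every Sham and rt-PA+Acu library. Only Kl of this list was tested in Model over Sham, and it rose 20.2-fold (adjusted p = 9.81e-05). The part of this tissue in the levels of the 10 genes was not tested either. Of 6 red blood cell markers 1 is in the table, at 3.54 CPM or less.

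Set against the endothelial marker sum of the same library, the members did not keep 1 ratio. Vwf had ratios of 0.612 ± 0.097 (mean ± SD over the 3 Sham libraries), 0.337 ± 0.076 (Model), 0.521 ± 0.040 (rt-PA) and 0.806 ± 0.080 (rt-PA+Acu). Without Kdr in the sum the Vwf ratios were 0.667 ± 0.098, 0.561 ± 0.146, 0.726 ± 0.039 and 0.900 ± 0.119, so that Model (0.725, 0.515 and 0.445) overlapped Sham (0.676, 0.565 and 0.760). For F2r the ratio with all 7 markers was 0.148 ± 0.012, 0.127 ± 0.028, 0.102 ± 0.035 and 0.401 ± 0.050 in the same order. For Thbd it was 0.0479 ± 0.0055, 0.132 ± 0.016, 0.165 ± 0.018 and 0.0867 ± 0.0318. Without Kdr the F2r ratios were 0.162, 0.213, 0.142 and 0.446, and those of Thbd 0.0523, 0.222, 0.230 and 0.0969 (means in the same order). With and without Kdr, every rt-PA+Acu library had more of each member but F2rl1 and F2rl3 per endothelial marker CPM than any Sham library. The marker sum itself was lower in rt-PA+Acu, with a mean of 110 CPM against 192 in Sham. Every Model and rt-PA library had more Thbd, Procr, F2rl1 and F2rl2 by this measure than any Sham library, with and without Kdr. These ratios are descriptions and were not tested.

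The genes whose pattern over the 12 libraries was most like that of a member were found from the root mean square difference of centred log2 CPM, where 0 is the same pattern. For Thbd they were Tgm2 (0.23), Cd93 (0.30) and Ppp1r3b (0.31). For F2rl1 they were Dysf (0.42), Dio3 (0.42) and then Thbd itself (0.50). Procr was nearest to Adamts1 (0.42), Pvr (0.42) and A3galt2 (0.43), and Vwf to Emp2 (0.15), Ccdc9b (0.18) and Amotl2 (0.19). For Tfpi they were Snapc1 (0.07), Ddx19b (0.10) and Tex261 (0.10), and for F3 Adipor1 (0.14), Lonp1 (0.15) and Dnmt3a (0.16). F2r was nearest to Cibar2, Podxl2 and Fbxw9 (0.17 to 0.19), Pros1 to Sf3b3, Lig1 and Spidr (0.18 to 0.19), and F2rl2 to Sp5, Nfkbiz and Wnt2b (0.53 in each case). Small values are easier to reach for genes that varied little, such as Tfpi, whose log2 CPM had an SD of 0.32 over the libraries against 1.28 for Thbd and 1.80 for Procr.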

How the data were processed

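Cerebral cortex RNA of 12 rats' libraries was analysed, 3 in each of 4 groups taken from the sample labels. The labels do not say that each library is 1 animal, so p-values measure the spread between libraries. The deposited values are raw counts per gene. Per the labels, poly(A) RNA was sequenced as stranded paired reads with molecular identifiers in the adapters, and the authors' processing notes name STAR 2.7.10a, Salmon 1.9.0, featureCounts 2.0.1 and the build mRatBN7.2; whether identifiers were used in counting is not given in the sources used here. Duplicate removal could change counts of abundant genes, and counting error is a lower limit of the spread.

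For each comparison edgeR 4.0.16 was run on the 6 libraries of the 2 groups alone (filterByExpr, TMM, glmQLFit and glmQLFTest, two-sided), with p-values adjusted over all genes tested. Several comparisons share libraries. The fit was tested on simulated data. CPM used TMM library sizes. Pathway genes are named where they passed with a log2 fold change over 1 in at least 1 comparison and averaged at least 1 CPM in at least 1 group. F8, which did not meet this rule, is named as well. A fold against a group at 3 counts or fewer in every library is a bound against 3 counts in each. The members, lists and tests were chosen with earlier results of these data known. Alternatives were DESeq2 1.42.0, its size factors, library size alone, no filter, a minimum of 10 counts, 1 fit over all libraries, a replicate block, other thresholds, and each library left out. Marker sums without their most raised marker were added after the data had been seen. Promoters are from RefSeq GRCr8, so no coordinate was set beside the authors' build.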

Additional observations from a re-analysis of the deposited data

How the results depend on the processing

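Over the 54 log2 fold changes of the 9 genes tested, in 6 comparisons each, 693 alternative values were computed: 631 kept direction and side of the threshold, 35 lost the call, 15 gained one and 12 changed sign. None of the 12 had passed the test. For the genes with a change of sign, the range over the main fit and all alternatives is given here. F2r in rt-PA against Model ran from -0.27 to 0.040. In rt-PA+Acu against Sham F3 ran from -0.10 to 0.18, Thbd from -0.19 to 0.30 and Tfpi from -0.0057 to 0.19. In rt-PA+Acu against Model F2rl2 ran from -1.03 to 0.12 and Vwf from -0.38 to 0.051. With any 1 library left out, members passing numbered 5 to 7 in Model against Sham, 0 to 0 in rt-PA against Model, 3 to 7 in rt-PA+Acu against rt-PA (7 without rt-PA+Acu replicate 3), 7 to 9 in rt-PA against Sham (9 without rt-PA replicate 2, F2rl3 among them), 0 to 1 in rt-PA+Acu against Sham and 3 to 5 in rt-PA+Acu against Model. Pathway genes passing numbered 19 to 28, 0 to 0 and 12 to 22 in the first 3 comparisons, with 12 without rt-PA replicate 1, 12 without rt-PA+Acu replicate 2 and 13 without rt-PA+Acu replicate 1 in the third. All genes passing in the third fell alike in these settings, from 4522 to 2694, 2496 and 2850, and rose to 5417 without rt-PA+Acu replicate 3.

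With a log2 fold change over 1 also required, members numbered 4 in Model against Sham, 5 in rt-PA against Sham, 0 in rt-PA+Acu against Sham and 3 in rt-PA+Acu against Model, and pathway genes 10 in Model against Sham and 13 in rt-PA+Acu against rt-PA. In rt-PA against Model, DESeq2 called 1 member, and an unadjusted p under 0.05 gave 3 members and 7 pathway genes. In rt-PA+Acu against Sham, library size alone and 1 fit over all 12 libraries gave 0 members each, and an unadjusted p gave 3. Library size alone moved the median log2 fold change of all genes to 0.15 in rt-PA against Sham. Where all genes of a comparison were counted, the number passing in rt-PA against Model was 0 by edgeR and 192 by DESeq2. The cause of these differences was not tested.

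The replicate block gave 0 members in rt-PA+Acu against Sham and turned F3 there to -0.019. It also lost F3 in rt-PA against Sham (adjusted p = 0.0692) and in rt-PA+Acu against Model (adjusted p = 0.0801), and it gained Pros1 in rt-PA+Acu against rt-PA (adjusted p = 0.0438). Deviations of libraries with the same number were weakly correlated in Model against Sham, between 0.05 and 0.11, and every library there correlated best with its own number. Elsewhere the correlations lay between -0.26 and 0.14. The numbers were not taken as pairs, and the replicate block served only as an alternative. With 11678450 counts or more per library, F2rl3 had at most 20 counts in any library, beside the limit of 3 counts. In the Sham libraries Procr had 11, 11 and 5 counts and F2rl2 had 17, 3 and 8.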
